A study of Mus musculus with 6 samples.

Results

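The genes described here encode collagens, laminins and other proteins of the extracellular matrix, compared here between oxaliplatin-resistant and parental HCT116 cells, a cell line from a human colorectal carcinoma. Members were chosen by gene symbol from the table of read counts. They comprise every collagen chain and laminin chain row, fibronectin (FN1), the lysyl oxidases (LOX, LOXL1 to LOXL4), SPARC, tenascin C (TNC), the thrombospondins (THBS1 to THBS4), the nidogens (NID1, NID2), perlecan (HSPG2) and agrin (AGRN). This gave 69 of 31456 rows, of which 49 held 30 or more counts over all libraries and were compared between the forms. There were 3 resistant and 3 parental libraries, made from total RNA of the same line. Oxaliplatin is a platinum drug used against colorectal cancer. The labels did not say how resistance was obtained, whether the resistant cells were 1 clone, or whether drug was present when RNA was taken. Nor did they state whether the replicates were separate cultures, and the p-values rest on the spread among libraries, which may be technical.

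Epithelial cells rest on a basement membrane, a sheet of laminin and collagen IV networks tied together by nidogen, perlecan and agrin. Laminins are trimers of an alpha, a beta and a gamma chain, and collagen IV is a trimer of alpha chains encoded by pairs of neighbouring genes. Fibrillar collagens such as type I form the fibres of the stroma and are made mainly by fibroblasts. Lysyl oxidases crosslink these fibres, and matricellular proteins such as SPARC and thrombospondins modulate how cells contact them.

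The libraries held 24039045, 28432096 and 25136365 counts in the resistant group and 27303582, 32138423 and 20246878 in the parental group. A floor of 3 counts in a library corresponded to 0.0933 to 0.148 CPM (counts scaled to library size), and floors cover counting error only. Parental replicate 2 stood apart from the other parental libraries on the second principal component, at -35.9 against 10.5 and 26.4. That component held 11.7% of the variance, against 64.7% on the first, which separated the groups. Keratins and other epithelial markers were high in both forms, with a summed level of 2768 to 2910 CPM in resistant and 3093 to 3496 CPM in parental libraries over all 8 markers, of which 2 rose and 6 fell. The largest shifts among these 8 were falls of ESRP1 and CLDN7. ESRP1 had 84.6 ± 2.24 CPM in resistant and 162 ± 3.09 CPM in parental cells (SD, n = 3 each, edgeR adjusted p = 5.9e-09). CLDN7 fell by 0.56 on the log2 scale (edgeR adjusted p = 7.3e-07). Of 12 fibroblast markers 11 had a row and 4 had 30 or more counts. Their sum was 31.4 to 33.2 CPM in resistant and 23.1 to 28.3 CPM in parental libraries. Most of it was FBLN1, which epithelial cells can also express, at 27.6 ± 1.05 and 21.5 ± 1.98 CPM (SD, n = 3 each). Markers with few reads were DCN with 1 count, LUM with 2, PDGFRA with 1, COL1A2 with 3, THY1 with 8 and FAP with 3 over all 6 libraries together. PDGFRB rose 3.29-fold at a low level (17, 13 and 15 counts in resistant and 5, 6 and 2 in parental libraries; edgeR adjusted p = 0.0033). ACTA2 did not pass, at 3.20 ± 0.525 CPM in resistant and 2.88 ± 0.654 CPM in parental cells (SD, n = 3 each; edgeR adjusted p = 0.58). The markers COL1A2, COL3A1 and COL6A3 are also among the 69 matrix genes. The 6 endothelial markers with a row summed to 1.2 to 1.74 CPM in resistant and 1.12 to 1.47 CPM in parental libraries. The 7 leukocyte markers with a row summed to 16.1 to 18.6 CPM in resistant and 14.1 to 15.3 CPM in parental libraries, most of it CD68, which rose 1.30-fold (edgeR adjusted p = 0.0014). HLA-DRA, from the same list, fell by 2.22 on the log2 scale (12, 11 and 9 counts in resistant and 45, 60 and 39 in parental libraries; edgeR adjusted p = 9.4e-06), and PTPRC had 4 counts in all. The part of these marker shifts in the results was not tested.

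Matrix genes changed in both directions, and the 10 called with a change of at least 2-fold were rises. Of the 49 genes compared, 21 rose and 10 fell in the resistant cells at an edgeR adjusted p under 0.05, and 18 did not pass. Over all 18094 rows tested, 49.8% passed, 25% higher and 24.8% lower. Of the matrix genes 42.9% were higher and 20.4% lower. A rise of at least 2-fold was called for 10 matrix genes, 20.4% of those tested, against 5.83% of all rows. No matrix gene tested had a log2 fold change of -1 or less in edgeR, whatever its p, and DESeq2 called none (0 in each). Of all rows 2.67% were called at least 2-fold lower, and among 49 genes so small a share is close to none. The median log2 fold change was 0.22 over the matrix genes and 0.02 over all rows. The CPM of the groups did not overlap for 35 matrix genes (71.4%), against 58.1% of all rows. When counts were scaled by library sizes alone, 24 matrix genes were higher and 6 lower. In the same setting the share of higher calls over all rows moved to 65.7% from 50.2%, and the median of all rows to 0.12. Without parental replicate 2, 22 matrix genes were higher and 9 lower. In bulk libraries more RNA per cell and more cells of a kind cannot be told apart.

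**Figure D1:**
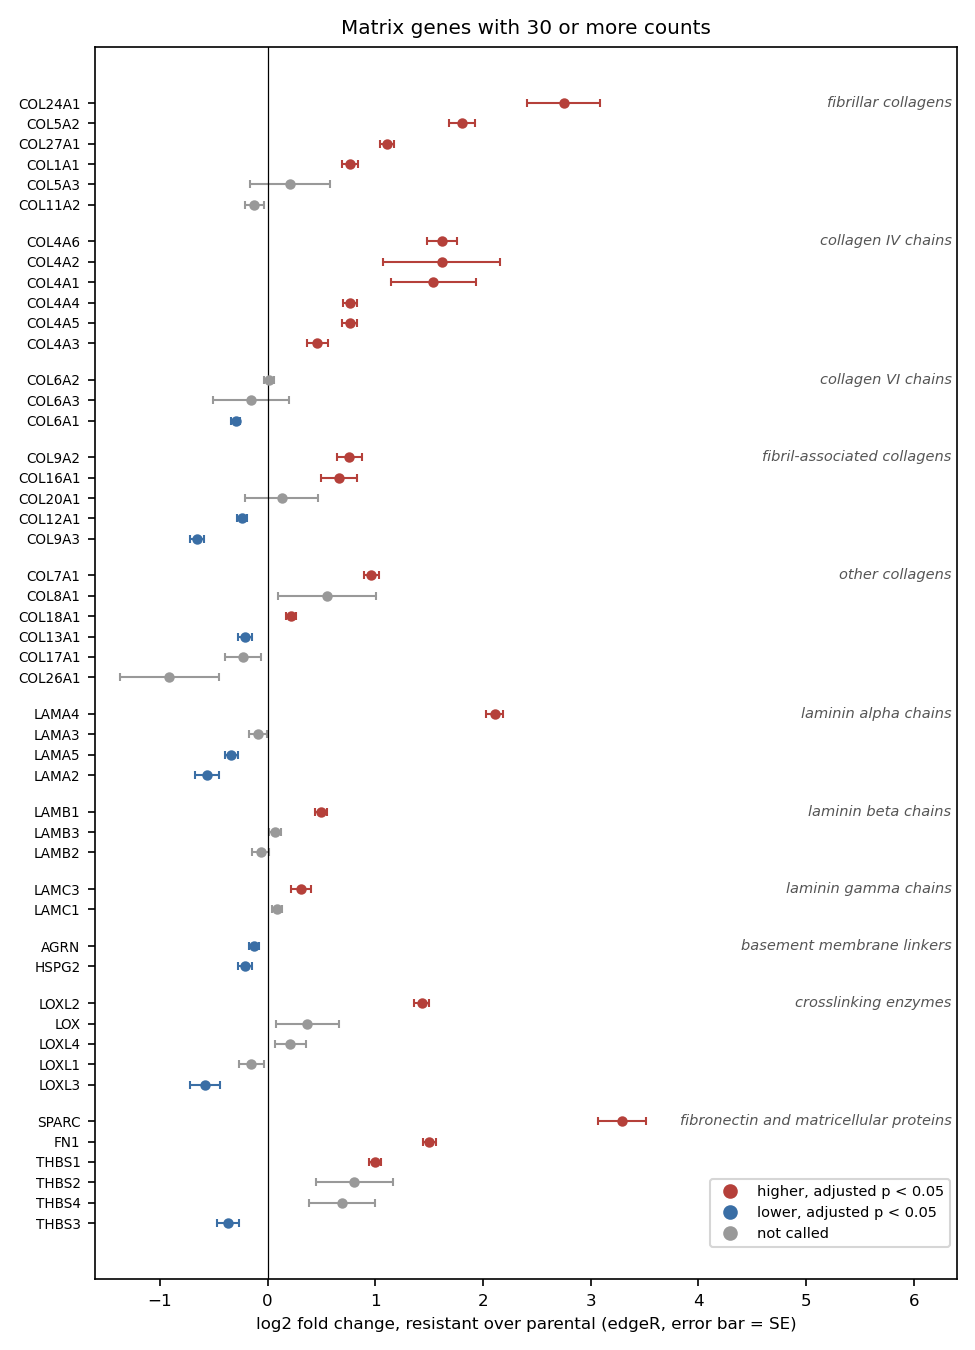
Log2 fold change of resistant over parental cells for 48 of the 49 matrix genes with 30 or more counts, grouped by role. Points are edgeR estimates from 3 against 3 libraries and bars are standard errors; red genes were higher and blue genes lower at an adjusted p under 0.05. All 6 collagen IV chains lie to the right of 0, and SPARC lies farthest right at 3.29.

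Among the fibrillar collagens, which assemble into the fibres of the stroma, 4 of 6 tested genes rose and none fell. Of all rows 25% were higher and 24.8% lower. COL24A1, a minor fibrillar collagen, had 34, 32 and 33 counts in resistant libraries and 4, 8 and 2 in parental libraries. It rose 6.72-fold (log2 fold change 2.75 ± 0.34 SE, edgeR adjusted p = 2.9e-05). All resistant libraries lay above all parental ones, at a level close to the floor in the parental cells. COL5A2, a type V chain that initiates and thins type I fibrils, had 13.4, 13.6 and 15.4 CPM in resistant libraries and 4.78, 3.42 and 3.93 CPM in parental libraries. COL5A2 rose 3.50-fold (log2 fold change 1.81 ± 0.12 SE, edgeR adjusted p = 1.3e-07), with a gap between the groups wider than the range within either. COL27A1, a fibrillar collagen of cartilage, had 31.8, 34.7 and 32.2 CPM in resistant libraries and 14.4, 16 and 15.5 CPM in parental libraries. Its rise was 2.16-fold (log2 fold change 1.11 ± 0.07 SE, edgeR adjusted p = 4.4e-08).

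COL1A1, the alpha 1 chain of type I collagen, rose 1.70-fold, with 41.6 ± 2.89 CPM in resistant and 24.4 ± 1.80 CPM in parental cells (SD, n = 3 each; edgeR adjusted p = 2.7e-06). Its usual partner chain COL1A2 had 1 count in the resistant and 2 in the parental libraries together. Type I collagen is normally a trimer of both chains, so these cells carried mRNA of 1 of the chains and almost none of the other. The partner chain of COL5A2 in type V collagen, COL5A1, was also scarce, with 14 and 12 counts in the resistant and parental groups. COL3A1, the type III chain whose gene neighbours COL5A2, had 5, 11 and 9 counts in resistant libraries and 1, 1 and 0 in parental libraries. The ratio of its summed counts was 12.0, with an exact 95% counting interval of 2.99 to 104, and with 27 counts in all it was below the minimum for the test. COL5A3 (0.475 ± 0.157 and 0.418 ± 0.112 CPM in resistant and parental cells) and COL11A2 (13.3 ± 1.41 and 14.5 ± 0.810 CPM) did not pass the test (SD, n = 3 each).

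All 6 collagen IV chains, the network-forming collagens of basement membranes, rose in the resistant cells, against 25% of all rows higher. Their genes sit as 3 head-to-head pairs, and the pairs differed in level and in size of change. COL4A5 had 50.7, 50.2 and 54.3 CPM in resistant libraries and 31.6, 27.6 and 32.5 CPM in parental libraries, a 1.70-fold rise (edgeR adjusted p = 1.8e-06). Its neighbour COL4A6 had 10.7, 11.9 and 11.9 CPM in resistant libraries and 4.29, 4.04 and 2.70 CPM in parental libraries. COL4A6 rose 3.08-fold (log2 fold change 1.62 ± 0.14 SE, edgeR adjusted p = 1.4e-06). In both genes every resistant library lay above every parental one. The ratio of COL4A5 to COL4A6 counts was 4.73, 4.21 and 4.57 in resistant libraries and 7.38, 6.84 and 12.0 in parental libraries. These ratios did not overlap, which in an exact two-sided permutation test gave p = 0.10, the smallest that 3 against 3 libraries allow (0.133 adjusted over the 8 pairs of genes compared).

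COL4A3 and COL4A4, the chains altered in recessive Alport syndrome, rose 1.38-fold and 1.70-fold. COL4A3 averaged 9.24 ± 0.361 CPM in resistant and 6.73 ± 0.668 CPM in parental cells (edgeR adjusted p = 0.0023; limma 0.062 on the unfiltered expression values, in a range of 3.0e-04 to 0.062). COL4A4 averaged 27.9 ± 1.69 CPM in resistant and 16.4 ± 0.355 CPM in parental cells (SD, n = 3 each; edgeR adjusted p = 1.2e-06). COL4A1 and COL4A2, the chains found in most basement membranes, were the scarcest of the family per gene length. COL4A1 had 24, 23 and 28 counts in resistant libraries and 10, 4 and 10 in parental libraries (a log2 fold change of 1.54 ± 0.39 SE, edgeR adjusted p = 0.006). COL4A2 had 20, 13 and 13 counts in resistant libraries and 8, 1 and 5 in parental libraries (a log2 fold change of 1.62 ± 0.54 SE, edgeR adjusted p = 0.026). These rises rest on few reads. The COL4A2 call was lost without parental replicate 2 (log2 fold change 1.03, edgeR adjusted p = 0.067), without resistant replicate 1 (1.32, edgeR adjusted p = 0.10) and with DESeq2 (adjusted p = 0.059). It was also lost on the deposited expression values (limma adjusted p = 0.053 to 0.22), and all its alternatives lay between 0.0024 and 0.22. On the deposited expression values COL4A1 had limma adjusted p-values of 0.33 to 0.53, within a range of 1.3e-04 to 0.53.

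**Figure D2:**
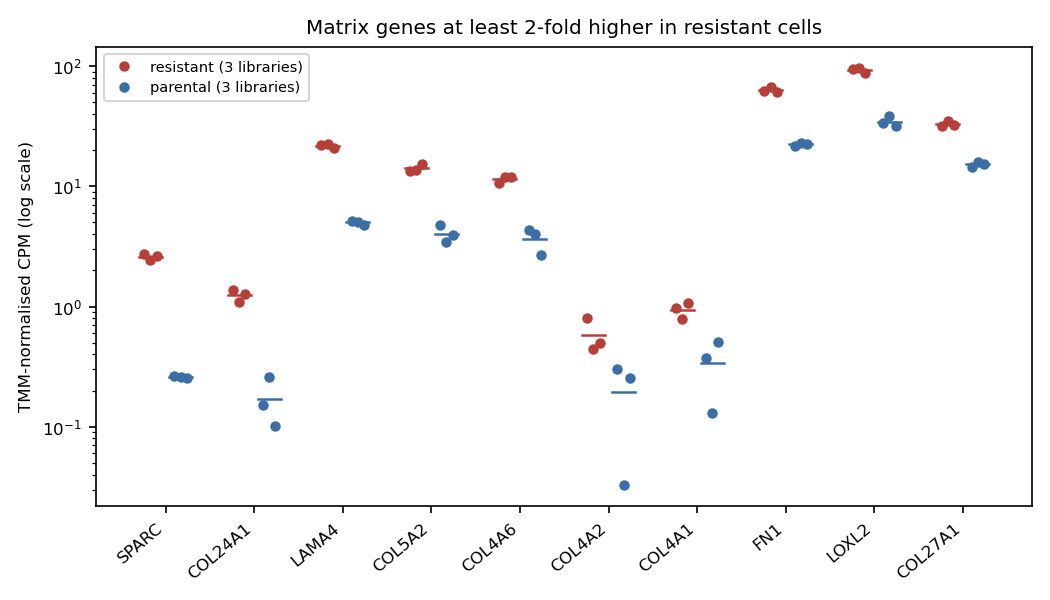
TMM-normalised CPM (log axis) in each library for the 10 matrix genes that rose at least 2-fold, ordered by fold change, with lines at the group means. For all 10 genes the 3 resistant libraries lie above the 3 parental libraries, and COL4A2 in parental replicate 2 rests on 1 count.

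The remaining collagens moved both ways, and none of them by 2-fold at an edgeR adjusted p under 0.05. COL7A1, the anchoring fibril collagen that ties the basement membrane to the stroma, rose 1.95-fold, with 18.7 ± 0.944 CPM in resistant and 9.58 ± 0.203 CPM in parental cells (SD, n = 3 each; edgeR adjusted p = 3.2e-07). COL18A1, the source of endostatin, rose 1.16-fold, with 89.8 ± 0.679 and 77.2 ± 2.40 CPM in resistant and parental cells (SD, n = 3 each; edgeR adjusted p = 0.0016). COL9A2 and COL9A3, chains of the same fibril-associated collagen, went opposite ways. COL9A2 had 8.50, 8.14 and 8.69 CPM in resistant libraries and 5.04, 4.33 and 5.71 CPM in parental libraries, and rose 1.69-fold (edgeR adjusted p = 1.5e-04). COL9A3 had 20.1, 20.1 and 20.4 CPM in resistant libraries and 33.2, 29.1 and 33.0 CPM in parental libraries, and fell by 0.65 on the log2 scale (edgeR adjusted p = 5.4e-06). No library of either gene crossed into the range of the other group. COL16A1 rose 1.58-fold at a low level, 3.61 ± 0.588 and 2.25 ± 0.327 CPM in resistant and parental cells (SD, n = 3 each; edgeR adjusted p = 0.0062). On the deposited expression values its call was lost (limma adjusted p = 0.21 to 0.38, within a range of 0.0011 to 0.38).

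COL12A1, a fibril-associated collagen, held the most counts of the collagens, with 229, 247 and 230 CPM in resistant libraries and 277, 281 and 273 CPM in parental libraries. It fell by 0.24 on the log2 scale (edgeR adjusted p = 9.1e-04), with no overlap between groups. In the deposited expression table the COL12A1 values were 28.2 ± 0.0808 in resistant and 28.5 ± 0.230 in parental cells (SD, n = 3 each), and the limma adjusted p was 0.84, the top of a range from 1.2e-05. Of the type VI chains, which form beaded microfibrils, COL6A1 fell by 0.30 (95.8 ± 2.73 CPM in resistant and 118 ± 2.66 CPM in parental cells; SD, n = 3 each; edgeR adjusted p = 1.6e-04). Its neighbour COL6A2 had 123, 120 and 117 CPM in resistant libraries and 115, 125 and 116 CPM in parental libraries, with overlapping groups (log2 fold change 0.02 ± 0.05 SE, edgeR adjusted p = 0.82). Relative to COL6A2, COL6A1 counts were 0.777, 0.818 and 0.798 in resistant and 1.009, 0.965 and 1.001 in parental libraries (exact permutation p = 0.10, 0.133 adjusted over 8 pairs). COL6A3, the chain that usually completes the type VI trimer, had 71 counts over all libraries and did not pass (log2 fold change -0.15 ± 0.35 SE). The transmembrane collagen COL13A1 fell by 0.21 (21.9 ± 0.228 and 25.3 ± 1.41 CPM in resistant and parental cells; SD, n = 3 each; edgeR adjusted p = 0.013). That call was lost with library sizes alone (edgeR adjusted p = 0.17), without resistant replicate 1 or parental replicate 1 (0.051 and 0.053) and on the deposited expression values, within a range of 0.0017 to 0.50. COL17A1, COL8A1, COL20A1 and COL26A1 did not pass, the last 3 with at most 58 counts each over all libraries.

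Of 10 laminin chains tested 3 rose, 2 fell and 5 did not pass, against 25% of all rows higher and 24.8% lower. Their median log2 fold change was 0.007, and the one with a change over 2-fold was LAMA4. This alpha chain, typical of vessel and mesenchymal basement membranes, had 21.9, 22.4 and 20.7 CPM in resistant libraries and 5.19, 5.08 and 4.74 CPM in parental libraries. LAMA4 rose 4.31-fold (log2 fold change 2.11 ± 0.08 SE, edgeR adjusted p = 6.5e-10), and the groups were well apart. Per gene length the most abundant matrix mRNA was LAMA5, the alpha chain of many epithelial laminins, with 320, 354 and 316 CPM in resistant libraries and 417, 444 and 390 CPM in parental libraries. LAMA5 fell by 0.34 on the log2 scale (edgeR adjusted p = 4.2e-04; limma 0.079 on the unfiltered expression values, in a range of 1.0e-09 to 0.079), without overlap. LAMA2, the alpha chain of muscle laminin, fell by 0.57, with 4.61 ± 0.200 CPM in resistant and 6.80 ± 0.630 CPM in parental cells (SD, n = 3 each; edgeR adjusted p = 0.0011). On the deposited expression values LAMA2 lost its call (limma adjusted p = 0.095 to 0.20, in a range of 5.0e-05 to 0.20).

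LAMB1, a beta chain that assembles with LAMC1, rose 1.41-fold, with 109, 117 and 112 CPM in resistant libraries and 79.9, 86.0 and 74.2 CPM in parental libraries (edgeR adjusted p = 1.8e-05; limma 0.067 on the unfiltered expression values, in a range of 2.6e-16 to 0.067). LAMC1, the gamma chain of most laminins, had 206, 209 and 205 CPM in resistant libraries and 190, 202 and 192 CPM in parental libraries. Its groups did not overlap but the difference was small (log2 fold change 0.09 ± 0.04 SE, edgeR adjusted p = 0.11). LAMC1 passed with library sizes alone (0.19, edgeR adjusted p = 0.0023), without parental replicate 2 (0.12, edgeR adjusted p = 0.013), with the replicate block (edgeR adjusted p = 0.043) and on the deposited expression values, in a range of 0.0023 to 0.36. Counts of LAMA5 relative to LAMC1 were 1.56, 1.69 and 1.54 in resistant and 2.20, 2.20 and 2.03 in parental libraries, and those of LAMB1 relative to LAMC1 were 0.530, 0.560 and 0.547 in resistant and 0.421, 0.426 and 0.387 in parental libraries. Neither ratio overlapped between groups (exact permutation p = 0.10 for each, 0.133 adjusted over 8 pairs). LAMC3 rose 1.24-fold (14.8 ± 1.35 and 11.9 ± 1.199 CPM in resistant and parental cells; SD, n = 3 each; edgeR adjusted p = 0.015). The LAMC3 call was lost without resistant replicate 1 or 2 or parental replicate 1 or 3, with edgeR adjusted p-values of 0.054 to 0.067, and on the deposited expression values (limma adjusted p = 0.21 to 0.35), within a range of 0.0011 to 0.35.

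LAMA3 and LAMB3, chains of a laminin found at hemidesmosomes, did not pass the test. LAMA3 had 12.2 ± 0.501 CPM in resistant and 13 ± 1.11 CPM in parental cells (log2 fold change -0.09 ± 0.08 SE, edgeR adjusted p = 0.40). LAMB3 had 88.9 ± 2.98 and 84.9 ± 5.74 CPM in resistant and parental cells (0.06 ± 0.06 SE, edgeR adjusted p = 0.36). All SDs are over n = 3. LAMB3 passed with library sizes alone (0.16, edgeR adjusted p = 0.023) and without parental replicate 2 (0.12, edgeR adjusted p = 0.031), in a range of 0.023 to 0.81. LAMB2, the other beta chain of LAMA5-type laminins, had 98.9 ± 6.98 and 103 ± 11.3 CPM in resistant and parental cells (SD, n = 3 each) and did not pass either (edgeR adjusted p = 0.55). LAMA1 had 0 counts in the resistant and 7 in the parental libraries, and LAMB4 had 3 and 0.

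The linkers of the basement membrane were slightly lower or scarce. HSPG2, the perlecan gene, had 74.5, 84.1 and 71.8 CPM in resistant libraries and 85.7, 96.2 and 84.3 CPM in parental libraries, and fell by 0.21 (edgeR adjusted p = 0.025). AGRN had 139, 147 and 143 CPM in resistant libraries and 160, 157 and 149 CPM in parental libraries, and fell by 0.12 (edgeR adjusted p = 0.045). For both genes the highest resistant library lay just below the lowest parental one. The HSPG2 call was lost with library sizes alone (-0.11, edgeR adjusted p = 0.19), on the deposited expression values and without resistant replicate 1 or 3 or parental replicate 2 (edgeR adjusted p = 0.060 to 0.10), in a range of 1.9e-04 to 0.38. That of AGRN was lost with library sizes alone (-0.02, edgeR adjusted p = 0.71), with filterByExpr (0.052), without each resistant replicate in turn or parental replicate 1 (0.051 to 0.17), and on the deposited expression values the sign turned (0.12), in a range of 0.013 to 0.71. NID1 had 12 counts in the resistant and 3 in the parental libraries. The ratio of its summed counts was 3.83, with an exact 95% counting interval of 1.03 to 21.2, and it was below the minimum for the test. NID2 had 11 and 9 counts. These nidogens, which bridge laminin and collagen IV, were thus near the floor in both forms.

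**Figure D3:**
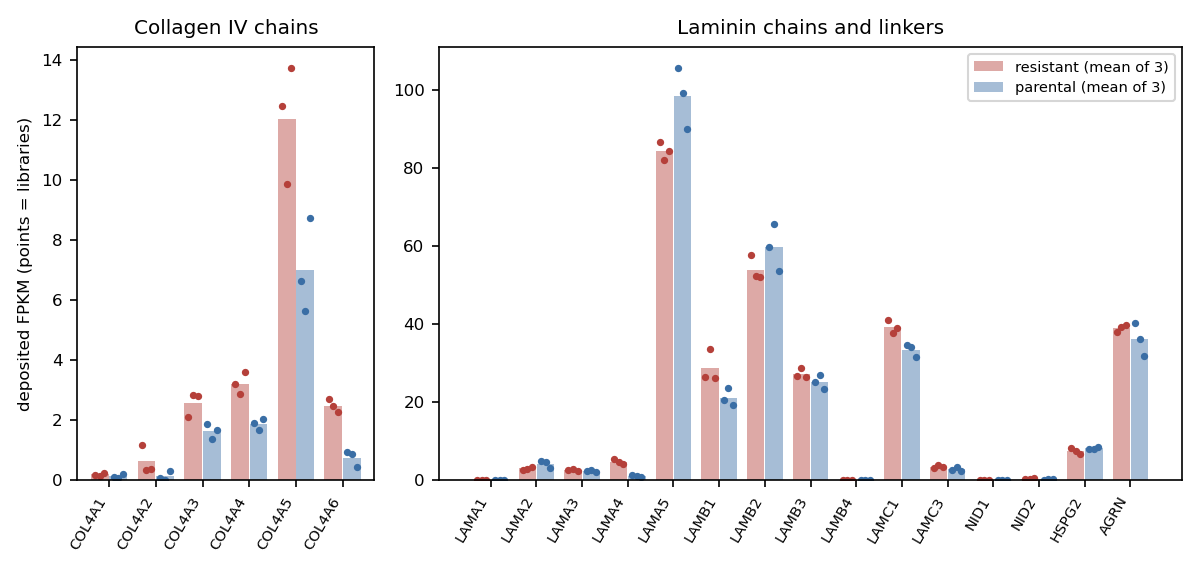
Deposited expression values (taken as FPKM, reads scaled to gene length and library size) of the collagen IV chains (left) and of 11 laminin chains and the linkers (right); bars are means of 3 libraries and points are libraries, resistant left of parental for each gene. COL4A5 is the highest collagen IV chain at a mean of 12.0 in resistant and 7.01 in parental cells, LAMA5 is the highest laminin at 84.4 and 98.5, and the nidogens lie near 0.

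Levels of different genes can be compared only per length, for which the deposited expression table was used. On this scale LAMA5 stood first with means of 84.4 ± 2.25 FPKM in resistant and 98.5 ± 7.86 FPKM in parental cells. LAMB2 followed at 54.0 ± 3.16 and 59.7 ± 6.09 FPKM, COL6A2 at 42.7 ± 0.763 and 40.2 ± 0.710 FPKM, and LAMC1 at 39.2 ± 1.72 and 33.4 ± 1.75 FPKM (SD, n = 3 each). AGRN (39.0 ± 0.886 and 36.1 ± 4.19 FPKM) did not differ from LAMC1 beyond the spread in either form. In the parental cells LOXL2 (11.8 ± 0.850 FPKM) was far below COL6A1 (31.5 ± 0.480 FPKM), whereas in the resistant cells LOXL2 at 33.4 ± 2.10 FPKM was above COL6A1 at 26.9 ± 0.774 FPKM. The summed level of all laminins was 943, 1007 and 935 CPM in resistant and 974, 1059 and 936 CPM in parental libraries, which overlap. That of all collagens was 824, 834 and 816 CPM in resistant and 790.0, 789.6 and 780.1 CPM in parental libraries. The remaining 16 members summed to 446, 471 and 442 CPM in resistant and 351, 366 and 337 CPM in parental libraries. Per length, the mean sums in resistant and parental cells were 264.7 and 264.6 FPKM for laminins and 209 and 188 FPKM for collagens. For the remaining members they were 116 and 78.9 FPKM.

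Of the lysyl oxidases, which crosslink collagen and elastin, LOXL2 rose and LOXL3 fell. LOXL2 had 95.3, 96.6 and 87.9 CPM in resistant libraries and 33.3, 38.1 and 32 CPM in parental libraries. It rose 2.70-fold (log2 fold change 1.43 ± 0.07 SE, edgeR adjusted p = 6.2e-09), and in both forms it was the most abundant of the family per length. LOXL2 crosslinks collagen IV. LOXL3 had 2.49 ± 0.175 CPM in resistant and 3.72 ± 0.219 CPM in parental cells and fell by 0.58 (SD, n = 3 each; edgeR adjusted p = 0.0037). On the deposited expression values LOXL3 lost its call (limma adjusted p = 0.20 to 0.37, in a range of 0.0024 to 0.37). LOX (2.35 ± 0.762 and 1.83 ± 0.562 CPM in resistant and parental cells), LOXL1 (7.21 ± 0.752 and 8.05 ± 0.881 CPM) and LOXL4 (3.42 ± 0.189 and 2.93 ± 0.337 CPM) did not pass. The antisense row LOXL1-AS1 held 1426 counts against 1194 for LOXL1, and without a stated strand the reads of these genes cannot be told apart.

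SPARC, a matricellular glycoprotein that binds collagen, had the largest fold change of the matrix genes tested. It had 68, 71 and 68 counts in resistant libraries and 7, 8 and 5 in parental libraries, or 2.59 ± 0.156 and 0.260 ± 0.00426 CPM (SD, n = 3 each). The rise was 9.78-fold (log2 fold change 3.29 ± 0.22 SE, edgeR adjusted p = 1.6e-07), and per gene length SPARC stayed below FN1 (means of 2.12 and 13 FPKM in resistant cells). FN1, the fibronectin gene, had 61.6, 67.6 and 61.1 CPM in resistant libraries and 21.6, 23.1 and 22.4 CPM in parental libraries, and rose 2.83-fold (log2 fold change 1.5 ± 0.06 SE, edgeR adjusted p = 1.5e-09). Every resistant library held more than double the CPM of every parental one. THBS1, the thrombospondin that binds CD47 and activates latent TGF-beta, had 51.6, 51.3 and 51.5 CPM in resistant libraries and 25.5, 27.4 and 24.1 CPM in parental libraries. THBS1 rose 1.997-fold (log2 fold change 0.998 ± 0.06 SE, edgeR adjusted p = 4.3e-08), just under the 2-fold line. THBS3 fell by 0.37, with 5.48 ± 0.390 and 7.07 ± 0.445 CPM in resistant and parental cells (SD, n = 3 each; edgeR adjusted p = 0.012). Its call was lost with library sizes alone (edgeR adjusted p = 0.056) and on the deposited expression values (limma adjusted p = 0.092 to 0.19), in a range of 0.007 to 0.19. THBS2 (13, 13 and 13 counts in resistant and 8, 6 and 7 in parental libraries; edgeR adjusted p = 0.083) and THBS4 (0.717 ± 0.109 and 0.452 ± 0.111 CPM; SD, n = 3 each; edgeR adjusted p = 0.081) did not pass, although their groups did not overlap. THBS4 passed with library sizes alone (edgeR adjusted p = 0.048) and on the filtered expression values (limma adjusted p = 0.020 and 0.028), in a range of 0.020 to 0.31.

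The other 20 members had 1 to 29 counts over all 6 libraries and at most 11 in a library, and were not tested. Nearest below the minimum was COL15A1, with 29 counts (22 in the resistant and 7 in the parental libraries), and nearest above it was COL26A1, with 37. TNC, the tenascin gene of wound and tumour stroma, had 2 counts in the resistant and 3 in the parental libraries.

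Genes that process, degrade or bind the matrix were read from the same fit, in which 25% of all rows were higher and 24.8% lower. Of 25 collagen processing enzymes and chaperones tested 10 rose and 10 fell, with a median log2 fold change of -0.05. P4HA1, a catalytic subunit of the collagen prolyl 4-hydroxylase, rose 2.20-fold (102 ± 5.26 CPM in resistant and 46.6 ± 3.21 CPM in parental cells; SD, n = 3 each; edgeR adjusted p = 1.8e-08). P3H2, a prolyl 3-hydroxylase that acts on collagen IV, rose 2.62-fold (6.41 ± 0.261 and 2.46 ± 0.330 CPM; edgeR adjusted p = 3.5e-06). The lysyl hydroxylase gene PLOD2 rose 1.58-fold, whereas PLOD1 and PLOD3 fell by 0.64 and 0.35 on the log2 scale (edgeR adjusted p = 3.0e-05 and 4.9e-04). The chaperone gene FKBP14 rose 1.76-fold, and FKBP10 fell by 0.60 (edgeR adjusted p = 3.0e-04). Summed over the list, levels were 2893 to 2998 CPM in resistant and 3174 to 3424 CPM in parental libraries. The largest part of this sum was P4HB, at 1323 ± 33.9 CPM in resistant and 1536 ± 67.1 CPM in parental cells. P4HB fell by 0.22 on the log2 scale (SD, n = 3 each, edgeR adjusted p = 0.0023). The related protease genes ADAMTS14 and ADAMTS2 went opposite ways. ADAMTS14 rose 1.17-fold, with means of 25.4 CPM in resistant and 21.6 CPM in parental cells (edgeR adjusted p = 0.0091). ADAMTS2, a protease that removes the propeptide of fibrillar procollagens, fell to 2.28 ± 0.343 CPM in resistant cells, against 5.16 ± 0.501 CPM in parental cells (edgeR adjusted p = 3.7e-05). Per length ADAMTS2 was the scarcer in resistant and parental cells (means of 0.687 and 1.33 FPKM, against 5.12 and 4.07 FPKM for ADAMTS14). P4HA3 also fell (0.436 ± 0.189 and 1.05 ± 0.0663 CPM; edgeR adjusted p = 0.0059), a call lost on the deposited expression values (limma adjusted p = 0.25 to 0.50, in a range of 5.1e-04 to 0.50).

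Of 24 matrix proteases and inhibitors 13 rose and 4 fell, with a median log2 fold change of 0.32, against 25% of all rows higher and 24.8% lower. The interstitial collagenase genes MMP1 and MMP13 were low in both forms. MMP1 had 20, 14 and 15 counts in resistant libraries and 1, 1 and 0 in parental libraries, a ratio of summed counts of 23.5 with an exact 95% counting interval of 6.16 to 199 (edgeR adjusted p = 7.2e-05). MMP13 had 31, 37 and 40 counts in resistant and 5, 1 and 1 in parental libraries, and rose by 3.82 ± 0.43 SE on the log2 scale (edgeR adjusted p = 1.5e-05). Without parental replicate 1, which held 5 of the 7 parental counts, the MMP13 rise was 4.91 on that scale (edgeR adjusted p = 8.4e-06, in a range of 4.2e-18 to 0.0032). MMP10 and MMP16, not tested, had 15 and 17 counts in the resistant and 0 in the parental libraries, at least 4.79-fold and 5.43-fold higher against a floor of 3 counts over the group. MMP19 rose 5.34-fold and PLAU, the urokinase gene, 2.25-fold (142 ± 4.17 and 62.8 ± 2.80 CPM in resistant and parental cells; edgeR adjusted p = 2.3e-09), and the serpin gene SERPINB5 rose 1.56-fold. TIMP3, a matrix-bound inhibitor of metalloproteinases, had 0, 0 and 1 counts in resistant libraries and 30, 43 and 26 in parental libraries. The ratio of summed counts was 103-fold higher in the parental cells, with an exact 95% counting interval of 18.1 to 4124 (edgeR adjusted p = 1.8e-06). TIMP3 was scarce even there, at a mean of 0.29 FPKM, and the related inhibitor genes TIMP1 and TIMP2 were far more abundant. TIMP1 did not pass (means of 152 and 145 FPKM in resistant and parental cells; edgeR adjusted p = 0.92). TIMP2 rose 1.36-fold (means of 70.9 and 48.9 FPKM; edgeR adjusted p = 2.5e-06). PLAT, the tissue plasminogen activator gene, fell by 1.07 on the log2 scale (8.27 ± 0.680 and 17.3 ± 2.05 CPM; edgeR adjusted p = 2.4e-06).

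Of 21 other structural matrix genes 9 rose and 5 fell (median log2 fold change 0.21), against 25% of all rows higher and 24.8% lower. With library sizes alone 10 rose and 2 fell. In that setting the share of higher calls over all rows was also larger, at 65.7% against 50.2% with TMM. The number lower was 2 without resistant replicate 1 or 3, 3 without parental replicate 1 or 3, and 0 on the deposited expression values. CCN2, a connective tissue growth factor gene, had 50.5, 48.0 and 49.3 CPM in resistant libraries and 7.75, 7.85 and 6.94 CPM in parental libraries, a 6.51-fold rise (edgeR adjusted p = 2.5e-11). SPP1, the osteopontin gene, rose 5.37-fold (13.1 ± 0.888 and 2.44 ± 0.166 CPM; edgeR adjusted p = 3.6e-09). The netrin genes NTN4 and NTN1, whose products resemble the ends of laminin chains, rose 2.96-fold and 1.51-fold. FBN2, a fibrillin gene, rose 2.61-fold on few reads (0.865 ± 0.154 and 0.335 ± 0.137 CPM; edgeR adjusted p = 0.0052). SPOCK1, a testican proteoglycan gene, fell by 2.46 on the log2 scale (2, 5 and 2 counts in resistant and 20, 12 and 16 in parental libraries; edgeR adjusted p = 0.001). The calls of FBN2 and SPOCK1 were lost on the expression values plus 1 (limma adjusted p = 0.086 and 0.11, in ranges of 8.3e-04 to 0.12 and 4.7e-06 to 0.25).

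Of 17 collagen and laminin receptors 7 rose and 7 fell (median log2 fold change -0.06), against 25% of all rows higher and 24.8% lower. ITGA1 and ITGA2, which are among the collagen-binding integrin subunits, rose 7.85-fold and 1.86-fold. ITGA1 had 16.1, 16.5 and 18.0 CPM in resistant libraries and 2.37, 2.35 and 1.58 CPM in parental libraries (edgeR adjusted p = 2.1e-09). BCAM, a receptor for laminin alpha 5, rose 2.04-fold, opposite to LAMA5 itself (67.2 ± 1.93 and 33.1 ± 0.699 CPM in resistant and parental cells; edgeR adjusted p = 9.4e-09). ITGA7, a laminin-binding subunit of muscle, fell by 1.03, and CD44, the hyaluronan receptor, fell by 0.83 (415 ± 7.36 and 737 ± 19.7 CPM; edgeR adjusted p = 1.2e-08). Of 23 genes of TGF-beta signalling, a pathway that induces many matrix genes, 10 rose and 2 fell (median log2 fold change 0.35), against 25% of all rows higher and 24.8% lower. With library sizes alone 15 rose and 1 fell, while the share of higher calls over all rows was also larger, at 65.7% against 50.2% with TMM. The ligand gene TGFB2 rose 3.87-fold (2.27 ± 0.192 and 0.608 ± 0.277 CPM; edgeR adjusted p = 1.3e-04), the latent binding protein genes LTBP2 and LTBP1 2.88-fold and 1.82-fold, and SMAD3, a transducer, 1.76-fold. SKIL, a feedback inhibitor, rose 2.14-fold. ITGAV, the integrin subunit that binds fibronectin and latent TGF-beta, rose 3.03-fold (344 ± 23.7 and 113 ± 12.1 CPM in resistant and parental cells; edgeR adjusted p = 1.2e-07). SDs are over n = 3 in each group.

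**Figure D4:**
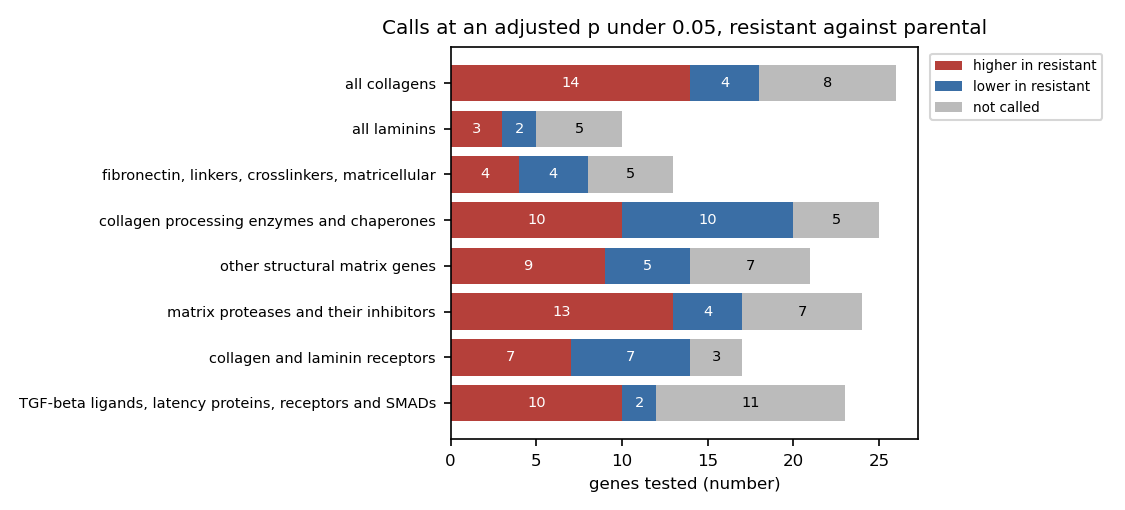
Number of genes tested that were higher, lower or not called in resistant against parental cells (edgeR, adjusted p under 0.05), for the collagens, the laminins, the other 13 matrix genes tested and 5 lists of related genes. Of 26 collagens tested 14 were higher and 4 lower, against 25% and 24.8% of all rows. The proteases (13 and 4) and the TGF-beta list (10 and 2) also held more rises than falls. The processing enzymes (10 and 10) and receptors (7 and 7) held equal numbers.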

How the data were processed

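Libraries were made from total RNA, per the labels' protocols. Mouse is the labelled organism, and GRCm38 and mm10 are the builds in the submitters' processing notes, but the deposited tables carry human Ensembl identifiers and symbols, which were used as given. No coordinates or sequences are therefore printed. Which aligner, counter and strandedness produced the counts is not stated in the labels or file headers. The authors deposited whole-number read counts without normalization. They also deposited an expression table whose unit the header does not name; these deposited values were taken as FPKM, from the values themselves, and how the authors made them is not given in the labels or headers.

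Counts were tested with edgeR 4.0.16 in R 4.3.3 (TMM, robust quasi-likelihood test, two-sided, Benjamini-Hochberg adjustment over all rows, threshold 0.05) on the 18094 rows with 30 or more counts in all; of rows sharing a symbol, that with most counts was used. CPM are TMM-normalised, and the SE is the log2 fold change over the root of the F statistic. Ratios of gene pairs were compared by exact permutation. Alternatives used RLE factors, library sizes alone, filterByExpr, no filter, DESeq2 1.42.0, limma 3.58.1 on log2(FPKM + 1) or log2(FPKM + 0.1), a replicate block and leaving out each library. The edgeR procedure was run on simulated data with the same dispersion for every row and few changed rows. Those settings differ from the data here, so that run gives no error rates for them. The members, roles and lists were chosen with earlier results of these data known. Named are members with 30 or more counts, and from each list the 4 with the smallest p and those called with a 2-fold change. Members below that minimum, MMP10, MMP16, TIMP1, TIMP2, P4HB, PLOD1, PLOD3, FKBP10, ADAMTS14 and marker genes were named after their values were seen. Of the members tested, 1 is counted but not reported here by name.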

Additional observations from a re-analysis of the deposited data

How the results depend on the processing

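Of the 31 matrix genes called, 17 kept direction and call in all 15 alternatives run, 15 of them higher and 2 lower; 19 of the higher and 6 of the lower kept them in every alternative on counts. Across leave-one-out fits 19 to 22 members were higher, 7 to 10 lower and 9 to 11 at least 2-fold higher. Lower members numbered 6 with library sizes alone, 3 on log2(FPKM + 1) or log2(FPKM + 0.1) and 2 on log2(FPKM + 1) unfiltered; those at least 2-fold higher numbered 6 on log2(FPKM + 1), with or without the filter. The calls over all rows moved as well. Of these calls 65.7% were higher with library sizes alone, 60% on either filtered FPKM scale and 59.2% unfiltered, against 50.2% with TMM. Rows called numbered 9194 with library sizes alone, 6904 and 6865 on the filtered FPKM scales and 5290 unfiltered, against 9017 with TMM. The cause of these shifts was not tested. Other structural matrix genes lower were 2 with library sizes alone, 3 with filterByExpr, 0 on FPKM in each of the 3 fits (against 5 in edgeR) and 2 to 4 leaving out a library. Without the filter on FPKM, 6 processing genes, 4 receptors and 0 TGF-beta genes were lower, and 1 TGF-beta gene with library sizes alone. Receptors lower numbered 7 to 8 and TGF-beta genes lower 2 to 3 leaving out a library. Members that were not called changed sign in some alternatives without passing: LAMA3 (0.014 with library sizes alone, 0.12 and 0.16 on FPKM plus 1 and plus 0.1), LAMB2 (0.039 with library sizes alone, -0.12 to 0.034 leaving out a library), COL17A1 (0.0047 and 0.051 on FPKM), COL20A1 (-0.048 and -0.19), COL26A1 (0.036 and 0.13), COL6A3 (0.030 and 0.14, -0.35 to 0.063 leaving out a library), COL11A2 (0.019 and 0.024), COL5A3 (-0.080 to 0.36 leaving out a library) and COL6A2 (-0.015 to 0.056 leaving out a library). AGRN, called lower, was 0.12 on both FPKM scales. On FPKM the difference of log2 pair ratios was -2.45 for COL4A1/COL4A2 (-0.38 on counts, -0.77 to 0.07 leaving out a library), -0.13 for COL4A3/COL4A4 (-0.30), 0.21 for LAMB1/LAMC1 (0.41) and -0.047 for LAMB3/LAMA3 (0.15). Same-numbered libraries had deviations correlated at 0.07, 0.10 and 0.01, all positive but small, and differently numbered ones at -0.097 to 0.043. Parental replicate 3 correlated best with resistant replicate 1 (0.043). These values do not settle whether the numbers mark pairs, and the main test did not use them as pairs. With the replicate block 22 members were higher and 10 lower, and over all rows 10068 passed against 9017. Depth limits the chains with under 100 counts, such as COL4A1 and COL4A2.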

Other observations

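The deposited FPKM of a gene divided by its CPM was compared between libraries. For COL6A1 the highest of the 6 libraries exceeded the lowest by 1.06-fold, and for LAMB3 by 1.08-fold. For SPARC the figure was 2.08-fold, for COL5A2 2.03-fold, for COL4A1 2.77-fold and for COL4A2 7.38-fold. COL4A2 had 1.18, 0.32 and 0.35 FPKM in resistant libraries, from 20, 13 and 13 counts, and 0.06, 0.01 and 0.29 FPKM in parental libraries, from 8, 1 and 5 counts. How the deposited values were computed was not tested.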
